A study of Mus musculus with 12 samples.

Results

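Integrins are the cell surface receptors that hold cells to the matrix and to other cells, and laminins are the main adhesive proteins of basement membranes. In the expression table of mouse lung endothelial cells (MLECs) from control mice and from mice labelled as endothelial knockouts of Sp1 and Sp3, genes of these families were taken by their symbols, as every protein-coding gene named Itga, Itgb, Lama, Lamb or Lamc with its subunit or chain suffix. This gave 37 of the 28689 genes of the table. They were divided into 7 leukocyte integrins, 19 other integrins and 11 laminin chains.

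The 12 RNA libraries came from CTR mice (6 libraries) and dKO mice (6 libraries). Mice of both groups carried floxed alleles of both genes (Sp1 fl/fl/Sp3 fl/fl) and received tamoxifen. The dKO mice also carried VE-CAD-CreERT2, a tamoxifen-activated Cre recombinase driven by the VE-cadherin promoter and so by endothelial cells, whereas the CTR mice were littermates without it and are given as WT in the sample labels. According to the study's methods, the mice were adult males. MLECs are primary cells from lung, selected with magnetic beads against CD31 and then against ICAM-2, and grown in culture for a few passages before use. How many mice gave each library is not stated, so p-values measure the spread between these libraries, which may be technical.

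The authors deposited FPKM, the fragments on a gene scaled to its length and to the fragments of the library, and levels are given here in that unit unless stated. Each library held between 15523054 and 17938286 fragments, recovered from the table, which makes 1 fragment equal to 0.0279 to 0.0322 FPKM for a gene of 2 kb. Sp1 ranged from 19.4 to 23.7 FPKM in CTR and from 8.42 to 12.1 in dKO. Sp3 ranged from 24.2 to 31.1 and from 22.5 to 26.9, and its log2 fold change of -0.14 ± 0.067 did not pass the test (adjusted p = 0.0902, limma). These are values of the whole gene, and the floxed part alone was not measured. Endothelial markers were present, and the 10 of 10 tested were higher in dKO, with a summed level of 207 to 327 in CTR and 386 to 528 in dKO. Markers of other cells were present as well. The summed level of 10 macrophage markers was 914 to 1512 in CTR and 2477 to 5610 in dKO, that of 6 pan-leukocyte markers was 63.8 to 95.9 and 118 to 283, that of 6 mesothelial markers was 28.8 to 38.6 and 66.3 to 146, and that of 7 fibroblast markers was 2126 to 2697 and 829 to 1657. In RNA of a whole culture, fewer cells of a type and less RNA per cell cannot be told apart.

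An integrin is a heterodimer of an α and a β subunit, and the pair decides what it binds. The β1 subunit, encoded by Itgb1, joins many α subunits and so makes receptors for collagens, laminins and fibronectin, whereas the β2 subunit, encoded by Itgb2, is made by leukocytes and pairs with the α subunits Itgal, Itgam, Itgax and Itgad. A laminin is a trimer of an α, a β and a γ chain, and the basement membrane of blood vessels is rich in laminins that contain the α4 or the α5 chain. Sp1 and Sp3 bind GC boxes, short GC-rich motifs found in many promoters.

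The comparison of dKO with CTR was made with limma on log2(FPKM + 1) for genes that reached 1 FPKM in at least 6 libraries, 12467 in all, and a gene was called at an adjusted p under 0.05. Fold changes on this scale understate the change of genes near 1 FPKM. Of the 37 genes, 28 passed this filter, namely 5 leukocyte integrins, 15 other integrins and 8 laminin chains. Among the 20 integrins tested, 13 were higher in dKO, where 20.4% of all genes tested were higher. Without Itgb4, which passed the filter through dKO libraries alone, 12 of 19 were higher. Of the same 20, 0 were lower by limma, where 32.6% of all genes tested were lower, and 0 were lower at an unadjusted p under 0.05 or by the exact permutation test. With limma-voom, run on the fragments of all genes, 1 integrin was lower, Itga2b, which lies under the filter. Of the 8 laminin chains 3 were higher, 3 lower and 2 not called, so that the lowered share of laminins was close to that of all genes tested. Of 20 alternatives 9 left 1 chain higher, among them limma-voom with 4 chains lower. The median log2 fold change was 0.53 for the integrins, 0.003 for the laminins and -0.095 for all genes tested. After median-of-ratios scaling of the libraries, which moved that last value to -0.020, 25.5% of all genes were higher and 24.6% lower. Under this scaling 18 of the 28 genes were higher and 3 lower.

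**Figure D1:**
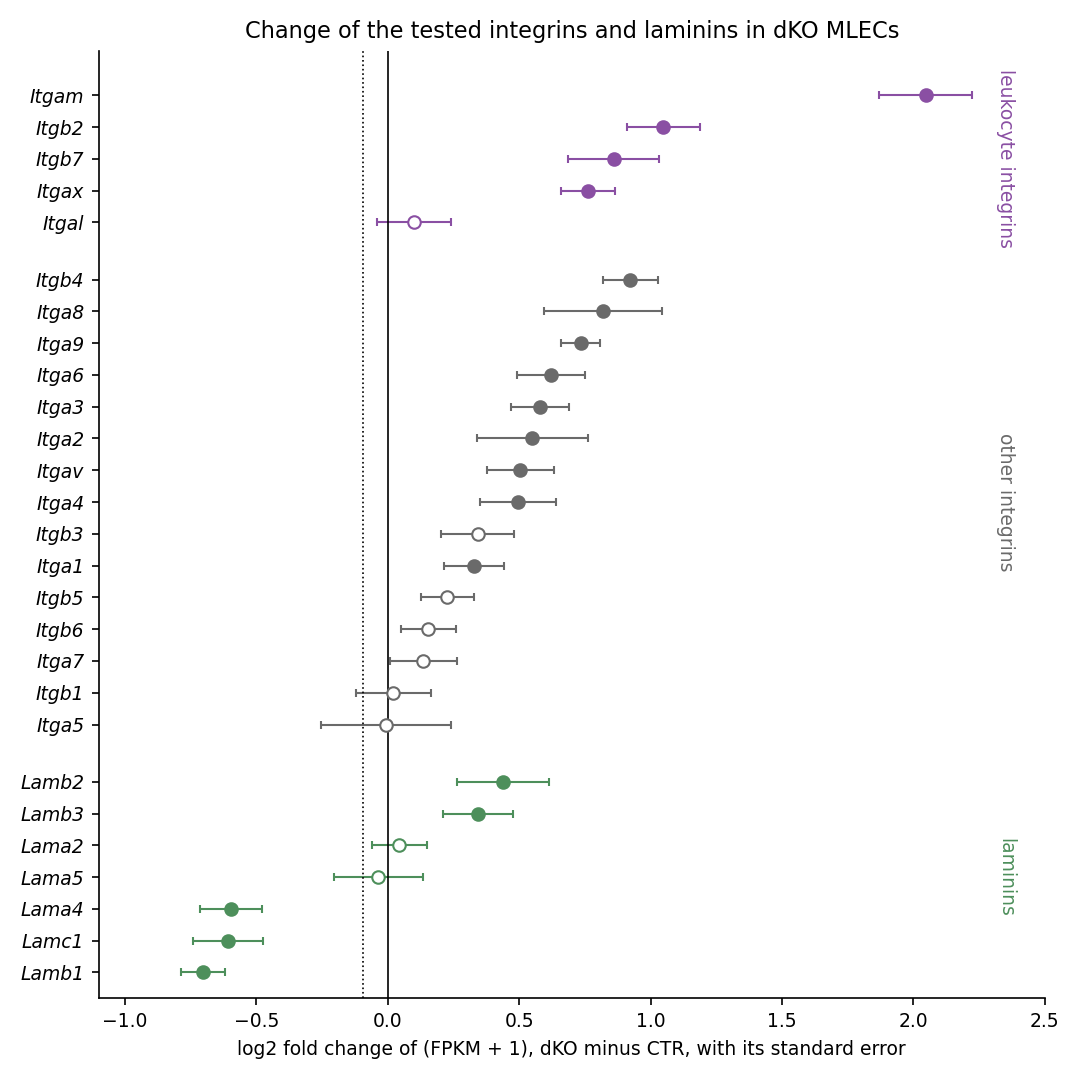
Log2 fold change of (FPKM + 1), dKO minus CTR, on the horizontal axis for 27 of the tested genes, 1 line per gene, with the standard error from limma over 6 CTR and 6 dKO libraries. Filled points have an adjusted p under 0.05 and open points do not, the solid line marks 0 and the dotted line marks the median of all genes tested, -0.095. The 13 called integrins lie to the right of 0, Itgam lies farthest from it, and the called laminin chains lie on both sides.

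Leukocyte integrins had the largest median change of the 3 groups. Itgb2 and its partners Itgam and Itgax were higher in every dKO library than in any CTR library, and Itgb7 was higher by the test, whereas Itgal was not called. Of the 5 leukocyte integrins tested, 4 were higher, 0 were lower by limma at either the adjusted or an unadjusted p under 0.05, and the exact permutation test and limma-voom gave the same counts. Of all genes tested, 20.4% were higher and 32.6% lower by limma at the adjusted p. The leukocyte integrins had a median log2 fold change of 0.86. For 3 of them every dKO library lay above every CTR library, as was so for 11.3% of all genes tested.

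Itgam encodes the αM subunit, CD11b, which with β2 forms the complement receptor of macrophages and neutrophils. It measured 0.890, 1.10 and 1.72 FPKM in the lowest, median and highest CTR library and 5.56, 7.47 and 14.1 FPKM in those of dKO. All dKO libraries were therefore well above all CTR libraries, and dKO replicate 3 was the highest. The log2 fold change was 2.05 ± 0.18 (SE, adjusted p = 2.81e-06, limma), and the summed fragments were 599 in CTR and 4262 in dKO. In this fit only Itgam of the 28 genes passed the study's pair of thresholds. These are an adjusted p under 0.05 and a log2 fold change over 1.5 in size. They were passed upward by 1.43% of all genes tested and downward by 0.553%. By limma-voom Itgb4 passed them too. The study applied its thresholds with DESeq2, and a legend of its supplement gives 1.5-fold instead. Its results text gives p under 0.05 without calling it adjusted. It reported many more genes at its cutoffs than the 178 upward and 69 downward of this fit. Passing here is therefore not the same as passing in the study. Which of the 28 genes are in the study's own list was not examined. Most of the exon bases of Itgam (67.4%) are also annotated to Gm49368, a gene listed at a mean of 0.002 FPKM, so how the counting divided fragments between them bears on the level.

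Itgb2 encodes the β2 subunit, CD18, the common partner of the leukocyte α subunits. Its level was 29.5, 36.1 and 47.9 FPKM in CTR and 65.5, 71.0 and 110 FPKM in dKO, again as lowest, median and highest library. The groups did not overlap, and dKO replicate 3 stood far above the other dKO libraries. Itgb2 rose by 1.05 ± 0.14 on the log2 scale (adjusted p = 5.94e-05, limma), and by 0.94 ± 0.12 without that library (adjusted p = 5.97e-05, limma). Itgax, the αX subunit CD11c of macrophages and dendritic cells, ranged over 5.23, 7.13 and 8.80 FPKM in CTR and 11.2, 12.6 and 13.7 FPKM in dKO. Its dKO libraries lay close together and all above CTR, with a log2 fold change of 0.76 ± 0.10 (adjusted p = 6.71e-05, limma).

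Itgal, the αL subunit CD11a of the lymphocyte receptor for ICAM proteins, was low in both groups. It measured 0.699, 0.944 and 1.32 FPKM in CTR and 0.661, 0.993 and 2.21 FPKM in dKO, and the groups overlapped. Its log2 fold change was 0.10 ± 0.14 (adjusted p = 0.575, limma), and -0.02 ± 0.10 without dKO replicate 3, the highest library. Itgad, the αD subunit, did not exceed 0.235 FPKM in any library, with 10 fragments summed over CTR and 36 over dKO.

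The partners of Itgb2 therefore changed in make-up. Of their summed FPKM, Itgam made up 9.32 to 16.2% in CTR and 28.0 to 46.9% in dKO, and Itgax 73.5 to 79.7% and 45.7 to 64.9%. Itgal made up 9.47 to 11.7% in CTR and 3.38 to 7.36% in dKO. None of these shares overlapped between the groups. They are given without a test, as they follow from the same values as the fold changes.

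Itgb7 encodes the β7 subunit of lymphocytes, which pairs with α4 or αE. Its level was 0.607, 0.696 and 1.94 FPKM in CTR and 1.71, 2.51 and 3.99 FPKM in dKO. The highest CTR library, replicate 5, was above the lowest dKO libraries, and the other CTR libraries were below all of dKO. Itgb7 rose by 0.86 ± 0.17 (adjusted p = 0.00122, limma), and by 0.99 ± 0.15 without CTR replicate 5 (adjusted p = 0.000252, limma). Its partner Itgae, the αE subunit that binds E-cadherin, ranged from 0.0128 to 0.149 FPKM over the 12 libraries and was not tested.

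**Figure D2:**
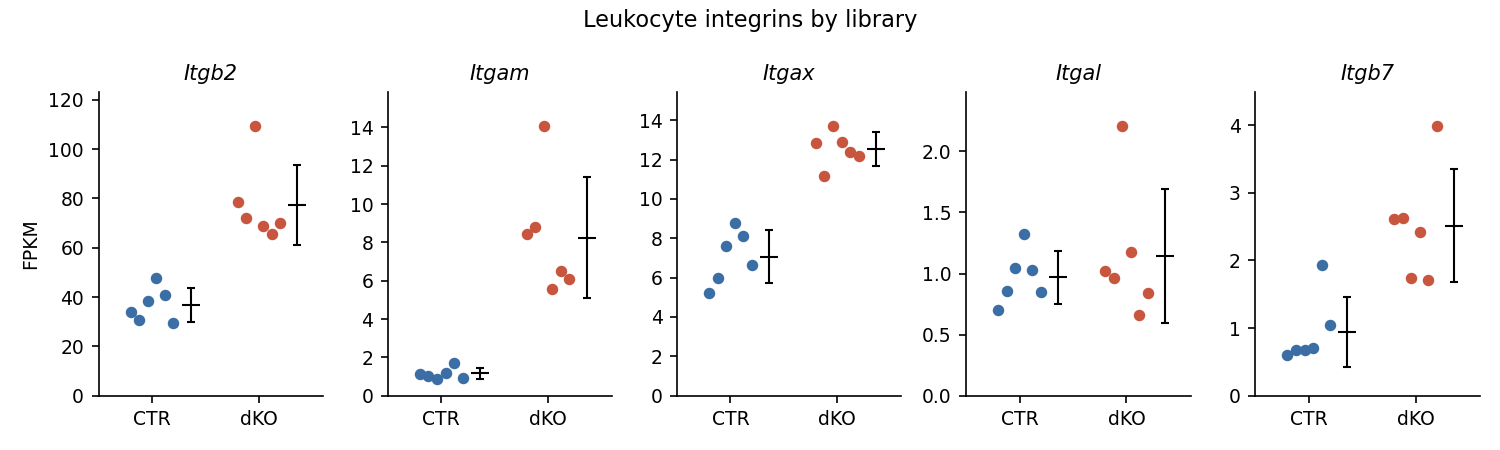
FPKM of the 5 tested leukocyte integrins, 1 panel each with an axis from 0, in the 6 CTR (blue) and 6 dKO (red) libraries, each group in order of replicate number. Points are libraries, and the bar beside them is the mean with its SD (n = 6). Itgb2, Itgam and Itgax separate the groups, Itgal does not, and dKO replicate 3 is the highest dKO library in 4 of the 5 panels.

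Leukocyte markers moved with these integrins. Of the 10 macrophage markers tested, 9 were higher in dKO and 1, Marco, was lower. Of the 6 pan-leukocyte markers tested, 6 rose, and the median of their log2 fold changes was 1.03. dKO replicate 3, the highest dKO library for Itgam, Itgax, Itgb2 and Itgal, was also the highest for the summed macrophage and pan-leukocyte markers. Of the 8 lymphocyte markers in the table, 7 were under 1 FPKM in all libraries, the other being Cd4. The summed level of the 8 was 0.0569 to 0.290 in CTR and 0.799 to 2.01 in dKO. Most of the rise in that sum was Cd4, at 0.0290 to 0.150 FPKM in CTR and 0.760 to 1.81 FPKM in dKO. Of the 8 markers of neutrophils and dendritic cells, 5 were under 1 FPKM in all libraries, and the 2 tested, S100a8 and Clec9a, were higher. The part of leukocyte number in the rise of the leukocyte integrins was not tested. Without dKO replicate 3, 4 of the 5 leukocyte integrins were still called higher.

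A GC box, searched for as GGGCGG or CCGCCC from 250 bases before to 50 bases after the start of each gene, was present in 1 of the 7 leukocyte integrins, namely Itgam, and in 50.7% of all protein-coding genes of the table. Among all 37 genes 18 held at least 1. Here the start is that of the transcript marked as canonical in the annotation, which can lie inside the annotated gene. A match describes the letters of this window and is not a binding site. The 200 bases before the annotated start of Itgam and of its partner Itgb2 are shown because they encode a receptor pair that rose together, from the GRCm39 genome (the build the authors name mm39), 5′ to 3′ on the strand of the gene, with GC boxes of either strand in capitals.
Itgam (chr7:127661608-127661807, + strand): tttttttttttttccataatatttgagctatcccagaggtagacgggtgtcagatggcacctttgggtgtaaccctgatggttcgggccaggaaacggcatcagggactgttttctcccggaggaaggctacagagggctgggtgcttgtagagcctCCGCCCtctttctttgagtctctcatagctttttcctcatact
Itgb2 (chr10:77365886-77366085, + strand): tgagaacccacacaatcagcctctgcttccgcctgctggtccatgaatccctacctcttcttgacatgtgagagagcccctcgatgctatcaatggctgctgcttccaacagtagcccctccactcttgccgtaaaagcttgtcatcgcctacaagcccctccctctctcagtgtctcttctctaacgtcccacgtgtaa
The stretch of Itgam holds 1 GC box and that of Itgb2 holds 0. Itgam lies on chromosome 7 next to Itgax and Itgad, with 10.9 kb between Itgam and Itgax and 3.7 kb between Itgax and Itgad, all on the same strand, while Itgal lies 727.5 kb before Itgam. Among these neighbours Itgam and Itgax rose and Itgad stayed near 0.

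The other integrins include subunits that several cell types share or platelets carry, namely Itga4, Itgb1, Itgb3 and Itga2b. Of the 15 tested, 9 were higher in dKO, where 20.4% of all genes tested were higher and 32.6% lower. By limma 0 of the 15 were lower at either the adjusted or an unadjusted p under 0.05, and 0 by the exact permutation test. Their median log2 fold change was 0.50, and for 2 of them, Itga9 and Itgb4, the groups did not overlap, a share near the 11.3% of all genes tested. Without Itgb4, 8 of 14 were higher and 1 did not overlap. The 6 not called were the most abundant subunits, Itgb1 and Itga5, and Itga7, Itgb3, Itgb5 and Itgb6.

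Itgb1 was by far the most abundant gene of the 37. It measured 379, 543 and 748 FPKM in CTR and 488, 541 and 687 FPKM in dKO, so that the dKO range lay inside the CTR range. The log2 fold change was 0.02 ± 0.14 (adjusted p = 0.911, limma). Itgb1 made up 73.6 to 86.8% of the summed FPKM of all β subunits in CTR and 69.1 to 80.4% in dKO, while Itgb2 made up 3.42 to 9.28% and 9.19 to 15.5%.

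Of the collagen receptors, which pair with β1, Itga2 and Itga1 were tested. Itga2 was at 9.74, 21.2 and 26.7 FPKM in CTR and at 24.0, 28.9 and 38.7 FPKM in dKO, and Itga1 was at 2.71, 3.50 and 4.21 FPKM in CTR and at 3.68, 4.49 and 5.75 FPKM in dKO. Both ranges overlapped between the groups. The log2 fold changes were 0.55 ± 0.21 for Itga2 (adjusted p = 0.0422, limma) and 0.33 ± 0.11 for Itga1 (adjusted p = 0.0275, limma). Neither call was firm. Without CTR replicate 4, the lowest library, the log2 fold change of Itga2 was 0.36 ± 0.14 (adjusted p = 0.0485, limma). The call of Itga2 was lost without CTR replicate 2 or 5 or dKO replicate 1, 2 or 5, with adjusted p from 0.0687 to 0.0892 (limma). The call of Itga1 was lost without CTR replicate 1, 3 or 6 or dKO replicate 4 or 5, with adjusted p from 0.0526 to 0.0616 (limma). Both calls were also lost with no filter, rescaled to TPM and by the exact permutation test. The genes are neighbours on the same strand of chromosome 13, 21.0 kb apart. Their relatives Itga10 (0.0967 to 0.283 FPKM) and Itga11 (0.176 to 1.07 FPKM) were not tested.

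Among the laminin receptors, Itga3, Itga6 and Itgb4 rose and Itga7 was not called. Itga3, whose product binds laminins with β1, was at 12.9, 15.1 and 21.0 FPKM in CTR and 20.6, 24.8 and 26.4 FPKM in dKO. Only dKO replicate 3 fell below the highest CTR library, replicate 4, and the log2 fold change was 0.58 ± 0.11 (adjusted p = 0.000808, limma). Itga6, which encodes the α6 subunit that pairs with β1 or β4, was at 6.67, 7.91 and 11.2 FPKM in CTR and 11.2, 12.9 and 16.9 FPKM in dKO. The groups met only where CTR replicate 4 reached the lowest dKO library, and Itga6 rose by 0.62 ± 0.13 (adjusted p = 0.00139, limma). A stretch of 326 bases of Itga6 is repeated without a mismatch in Gm29397, which reached at most 3.93 FPKM.

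Itgb4, the β4 subunit that anchors epithelial cells through hemidesmosomes, was low but clearly separated. It was at 0.650, 0.826 and 0.990 FPKM in CTR and at 1.92, 2.45 and 3.62 FPKM in dKO, on 593 and 1806 summed fragments. All dKO libraries exceeded all CTR libraries, and the log2 fold change was 0.92 ± 0.11 (adjusted p = 1.93e-05, limma), or 0.84 ± 0.084 without dKO replicate 5, the highest (adjusted p = 1.49e-05, limma). No CTR library reached 1 FPKM, so Itgb4 passed the filter through dKO alone and had to be higher there to be tested. It shares 14.9% of its exon bases with Galk1 on the opposite strand, listed at a mean of 42.5 FPKM, and whether the counting used strand is not given in the sources used here. Itga7, a laminin receptor of muscle, measured 1.04, 1.38 and 1.57 FPKM in CTR and 0.985, 1.70 and 2.33 FPKM in dKO. Its groups overlapped, although 3 dKO libraries exceeded all of CTR and 1 lay below all of it (log2 fold change 0.14 ± 0.13, adjusted p = 0.385, limma).

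The 200 bases before the canonical start of Itga6 are shown as those of a risen laminin receptor that is rich in GC boxes. They lie inside the annotated gene, which begins at position 71575960, and the boxes are in capitals as above.
Itga6 (chr2:71617019-71617218, + strand): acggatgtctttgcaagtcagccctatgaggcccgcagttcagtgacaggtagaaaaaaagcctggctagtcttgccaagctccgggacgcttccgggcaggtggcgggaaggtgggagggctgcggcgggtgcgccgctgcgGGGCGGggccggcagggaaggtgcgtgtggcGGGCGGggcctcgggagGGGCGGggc
This stretch holds 3 GC boxes and the wider window holds 6. Of the 16 genes that were higher 6 held a GC box, of the 9 not called 7 did, and of the 3 that were lower 2 did, against 59.6% of protein-coding genes tested.

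The α4 and α9 subunits bind VCAM-1, tenascin and other ligands on cells and matrix. Itga9 was at 4.59, 5.35 and 5.98 FPKM in CTR and at 8.23, 9.47 and 10.3 FPKM in dKO. Every dKO library exceeded every CTR library with little spread in either group, and the log2 fold change was 0.73 ± 0.076 (adjusted p = 9.06e-06, limma). Itga4 was at 0.927, 1.13 and 1.32 FPKM in CTR and at 1.21, 1.82 and 3.65 FPKM in dKO. Here the lowest dKO library, replicate 6, fell within CTR, and Itga4 rose by 0.50 ± 0.15 (adjusted p = 0.0124, limma). dKO replicate 3 was the highest library for Itga4, which leukocytes also make.

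Of the receptors for fibronectin and other proteins with arginine-glycine-aspartate (RGD) motifs, Itga8 and Itgav rose, and Itga5, Itgb3, Itgb5 and Itgb6 were not called. Itga8, a receptor for nephronectin on mesenchymal cells, was at 9.97, 15.2 and 21.9 FPKM in CTR and 13.7, 26.9 and 38.3 FPKM in dKO. The other dKO libraries exceeded all of CTR, but dKO replicate 1 lay inside it, and the log2 fold change was 0.82 ± 0.23 (adjusted p = 0.00851, limma). Itgav, the αv subunit shared by β1, β3, β5, β6 and β8, was at 13.03, 15.4 and 20.5 FPKM in CTR and at 17.9, 22.2 and 28.2 FPKM in dKO. CTR replicate 1 overlapped with dKO, and Itgav rose by 0.50 ± 0.13 (adjusted p = 0.00489, limma).

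Itga5, the main fibronectin receptor subunit, was the most abundant α subunit. It ranged over 50.9, 89.7 and 141 FPKM in CTR and 64.1, 92.9 and 141 FPKM in dKO, and replicate 1 was the highest library of both groups. Its log2 fold change was -0.01 ± 0.25 (adjusted p = 0.985, limma). The tested β partners of αv were not called either. Itgb3 was at 11.5, 12.6 and 13.3 FPKM in CTR and at 12.6, 15.7 and 26.2 FPKM in dKO (log2 fold change 0.34 ± 0.14, adjusted p = 0.0523, limma). Its highest value was that of dKO replicate 5, and without it the log2 fold change was smaller, 0.21 ± 0.078, with an adjusted p of 0.0431 (limma). Without dKO replicate 3 or 6 the adjusted p was 0.0280 and 0.0336. Itgb5 was at 66.5, 74.1 and 78.1 FPKM in CTR and at 65.8, 91.2 and 100.2 FPKM in dKO (log2 fold change 0.23 ± 0.10, adjusted p = 0.0739, limma). Its spread was wider in dKO, where replicate 1 was below all of CTR, and without dKO replicate 1 or 5 the adjusted p was 0.00775 and 0.0466. Fragments of Itgb5 may be shared with Gm38317, a copy of 343 of its bases at 99.1% identity that reached 13.5 FPKM. Itgb6, the epithelial partner of αv, was at 1.49, 1.61 and 2.55 FPKM in CTR and at 1.68, 2.06 and 2.55 FPKM in dKO, with overlapping groups (log2 fold change 0.15 ± 0.10, adjusted p = 0.225, limma). Itgb8, which takes part in activating transforming growth factor β, was between 0.0524 and 0.386 FPKM and was not tested.

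Itga2b, the αIIb subunit of the platelet fibrinogen receptor, lay under the filter but went in the opposite direction to the called integrins. It was at 0.496, 0.667 and 0.846 FPKM in CTR and at 0.143, 0.255 and 0.331 FPKM in dKO. All dKO libraries were below all CTR libraries, on 362 and 135 summed fragments. In the fit without a filter it fell by 0.41 ± 0.059 (adjusted p = 0.000362, limma), and by 1.43 ± 0.23 by limma-voom (adjusted p = 0.000231). Of the 6 platelet and megakaryocyte markers, 5 were under 1 FPKM in all libraries, and Pf4, which macrophages also make, was higher in dKO. The gene also contains a repeated element found in 18 other annotated transcripts, and the counting of such fragments is not given in the sources used here.

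**Figure D3:**
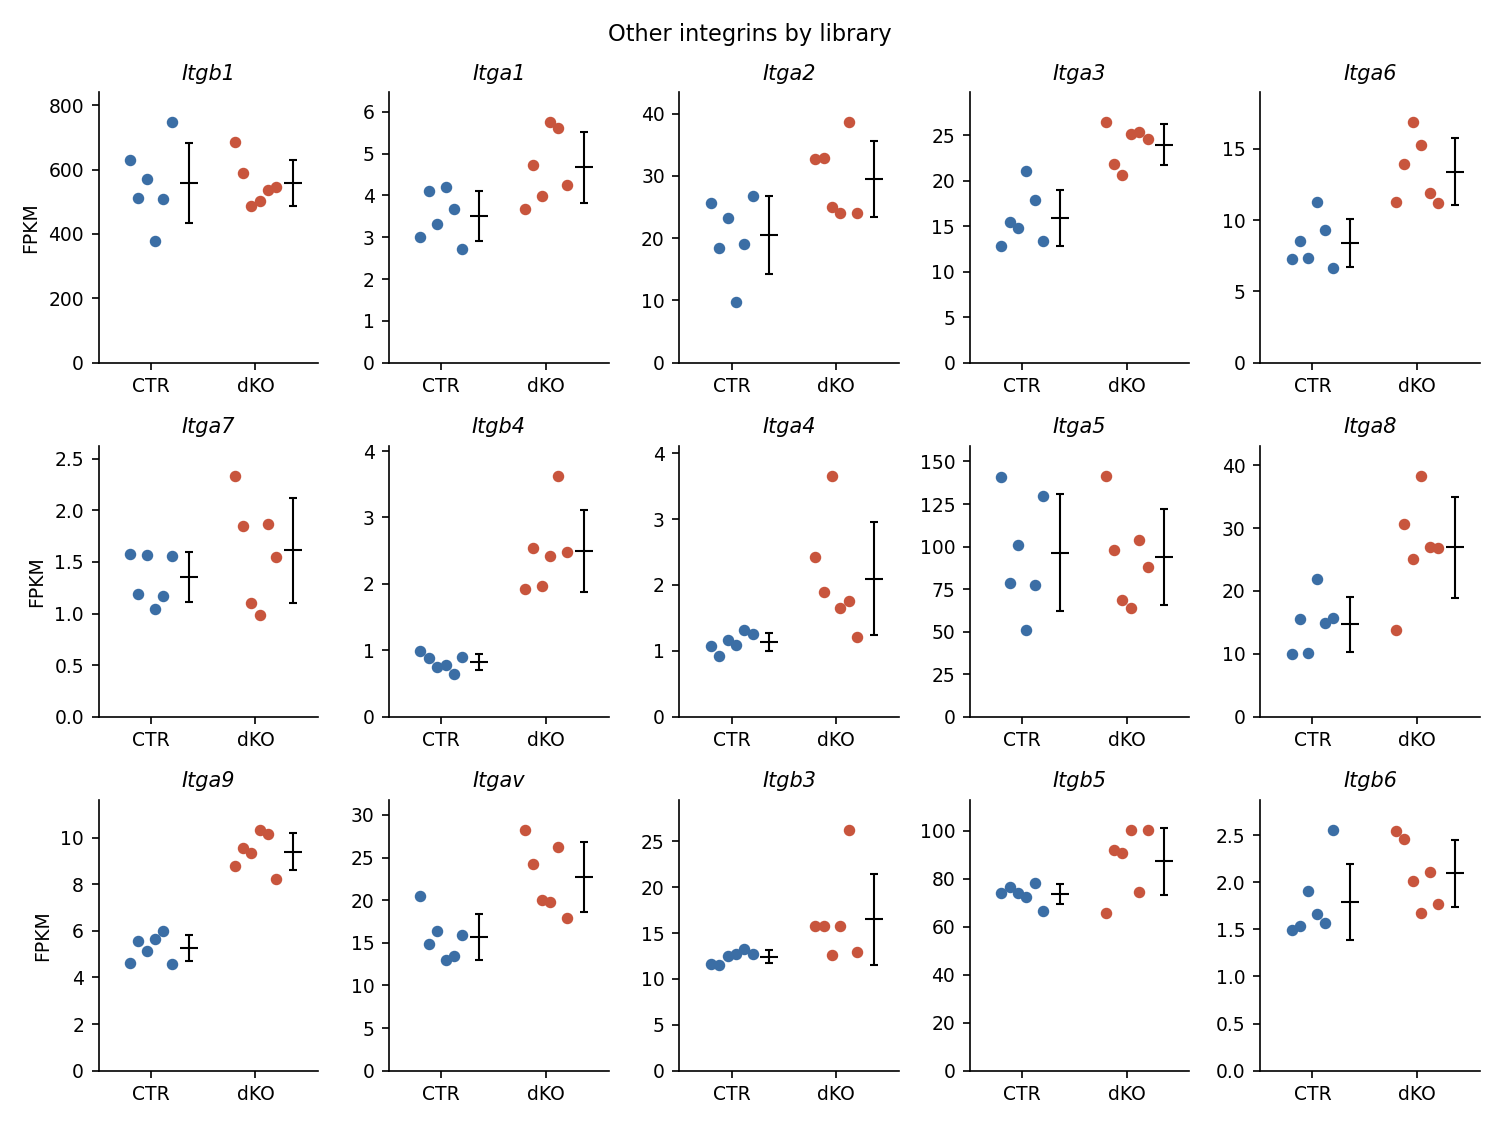
FPKM of the 15 tested integrins outside the leukocyte group, 1 panel each with an axis from 0, in the 6 CTR (blue) and 6 dKO (red) libraries in order of replicate number. Points are libraries, and the bar beside them is the mean with its SD (n = 6). Itga9 and Itgb4 separate the groups without overlap, whereas Itgb1 and Itga5 overlap over nearly the whole range.

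The laminin chains moved in both directions. The chains that together form the α4 laminin of endothelial basement membranes, Lama4, Lamb1 and Lamc1, fell, and the less abundant β chains Lamb2 and Lamb3 were called higher. Of the 8 chains tested 3 were higher and 3 lower, where 20.4% of all genes tested were higher and 32.6% lower. None was past the study's thresholds in this fit, and the calls of Lamb2 and Lamb3 were less stable than those of the lowered chains. Lamb1 was lower in every dKO library than in any CTR library, as was so for 16.1% of all genes tested. CTR replicate 1 was the lowest CTR library for all 8 chains, and without it Lama4, Lamb1 and Lamc1 fell by more, whereas Lamb2 and Lamb3 were no longer called.

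Lamb1, the β1 chain, measured 89.0, 99.3 and 111 FPKM in CTR and 50.7, 62.3 and 70.5 FPKM in dKO. The groups lay wide apart, and Lamb1 fell by 0.70 ± 0.084 on the log2 scale (adjusted p = 2.69e-05, limma). Without CTR replicate 1 it fell by 0.74 ± 0.086 (adjusted p = 4.28e-05, limma). Lamc1, the γ1 chain present in most laminins, was at 117, 149.97 and 175 FPKM in CTR and at 72.9, 98.3 and 120.03 FPKM in dKO. Only the lowest CTR library, replicate 1, fell within the range of dKO, and Lamc1 fell by 0.61 ± 0.13 (adjusted p = 0.00206, limma).

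Lama4, the α4 chain of vessels, was at 26.2, 33.3 and 35.4 FPKM in CTR and at 15.8, 21.3 and 27.2 FPKM in dKO. Again the overlap was that of CTR replicate 1 with 1 dKO library, replicate 5. Lama4 fell by 0.60 ± 0.12 (adjusted p = 0.00112, limma), and by 0.65 ± 0.12 without CTR replicate 1 (adjusted p = 0.000761, limma). The other α chains of these cells were not called. Lama5, the other α chain of endothelial basement membranes, was at 11.7, 16.6 and 22.6 FPKM in CTR and at 11.9, 16.1 and 23.5 FPKM in dKO (log2 fold change -0.04 ± 0.17, adjusted p = 0.868, limma). Lama2, the α2 chain of muscle and other mesenchyme, was at 19.8, 24.3 and 27.7 FPKM in CTR and at 20.8, 24.7 and 30.6 FPKM in dKO (log2 fold change 0.04 ± 0.11, adjusted p = 0.744, limma). For both of these chains the groups overlapped over nearly their whole range.

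Lamb2, the β2 chain, was at 18.3, 25.6 and 32.8 FPKM in CTR and at 21.7, 37.4 and 44.8 FPKM in dKO, and the groups overlapped. The log2 fold change was 0.44 ± 0.17 (adjusted p = 0.0492, limma), close to the threshold. This call was lost in 14 of 20 alternatives, among them those without CTR replicate 1, 3, 5 or 6 or dKO replicate 2, 3, 4, 5 or 6, with adjusted p from 0.0542 to 0.105. Lamb3, the β3 chain of epithelial basement membranes, was at 1.96, 3.17 and 3.65 FPKM in CTR and at 3.22, 4.16 and 5.97 FPKM in dKO, with overlapping groups and dKO replicate 1 far above the rest. Lamb3 had a log2 fold change of 0.34 ± 0.13 (adjusted p = 0.0439, limma). That call was lost in 12 of 19 alternatives. Among them were no filter, rescaling to TPM, the replicate block and limma-voom. It was also lost without CTR replicate 1, 2, 3 or 5 or dKO replicate 1, 2, 3 or 5, with adjusted p from 0.0573 to 0.0869 (limma). Lama3, the α3 chain of epithelia, was between 0.482 and 1.30 FPKM and was not tested.

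The remaining chains lay under the filter. Lama1, the α1 chain of embryonic and epithelial basement membranes, was at 0.543, 1.12 and 2.82 FPKM in CTR and at 0.298, 0.483 and 0.638 FPKM in dKO. Only CTR replicate 1 fell within the range of dKO, and in the fit without a filter Lama1 fell by 0.68 ± 0.20 (adjusted p = 0.0239, limma). Lamc3, the γ3 chain, ranged from 0.203 to 0.724 FPKM in CTR and from 0.138 to 0.318 FPKM in dKO, and was not called without the filter (adjusted p = 0.0782, limma).

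**Figure D4:**
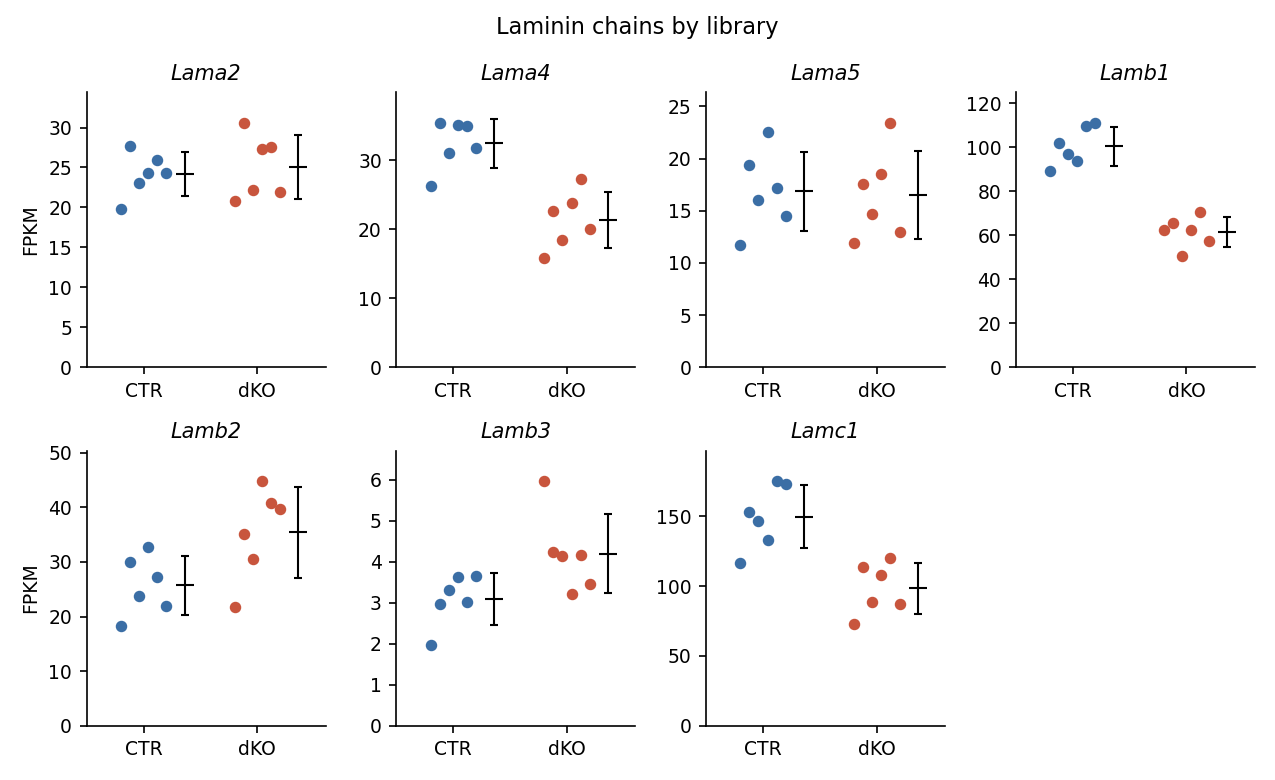
FPKM of 7 of the tested laminin chains, 1 panel each with an axis from 0, in the 6 CTR (blue) and 6 dKO (red) libraries in order of replicate number. Points are libraries, and the bar beside them is the mean with its SD (n = 6). Lamb1 separates the groups, Lama4 and Lamc1 overlap through CTR replicate 1, and the groups of Lama2 and Lama5 overlap over nearly their whole range.

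The 200 bases before the starts of the 3 lowered chains are shown because these chains fell together. The build, the direction and the capitals for GC boxes are as above. The stretches of Lama4 and Lamb1 lie inside the annotated genes, whose canonical transcripts start later.
Lama4 (chr10:38841311-38841510, + strand): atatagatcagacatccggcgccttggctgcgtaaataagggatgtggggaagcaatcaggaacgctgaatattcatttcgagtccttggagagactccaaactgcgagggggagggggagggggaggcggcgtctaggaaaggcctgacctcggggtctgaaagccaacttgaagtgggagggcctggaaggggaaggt
Lamb1 (chr12:31315092-31315291, + strand): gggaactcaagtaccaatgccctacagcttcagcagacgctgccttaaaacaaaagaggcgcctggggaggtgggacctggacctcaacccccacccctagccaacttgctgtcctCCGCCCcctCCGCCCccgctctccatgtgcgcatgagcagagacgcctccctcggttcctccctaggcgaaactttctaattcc
Lamc1 (chr1:153208775-153208974, - strand): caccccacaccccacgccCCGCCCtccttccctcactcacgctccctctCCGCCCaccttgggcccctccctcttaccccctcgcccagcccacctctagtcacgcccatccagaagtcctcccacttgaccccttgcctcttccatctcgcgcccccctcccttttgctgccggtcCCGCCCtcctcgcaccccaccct
The stretch of Lama4 holds 0 GC boxes, that of Lamb1 holds 2 and that of Lamc1 holds 3. In the wider window Lamc1 has 6. Lowered chains were thus found with and without these letters. Of all 11 laminin chains 6 held a GC box.

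The make-up of the α and β chains differed between the groups with less overlap than the levels. Lama4 made up 41.9 to 44.5% of the summed FPKM of the α chains in CTR and 31.3 to 35.8% in dKO, and Lama2 made up 29.1 to 33.5% and 34.5 to 42.4%. The share of Lama5, 19.5 to 27.0% and 23.2 to 29.4%, overlapped. Lamb1 made up 72.1 to 81.5% of the β chains in CTR and 56.4 to 69.3% in dKO, and Lamb2 made up 16.0 to 25.2% and 24.1 to 40.7%. The shares of Lama4, Lama2 and Lamb1 did not overlap between the groups, and all are given without a test.

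**Figure D5:**
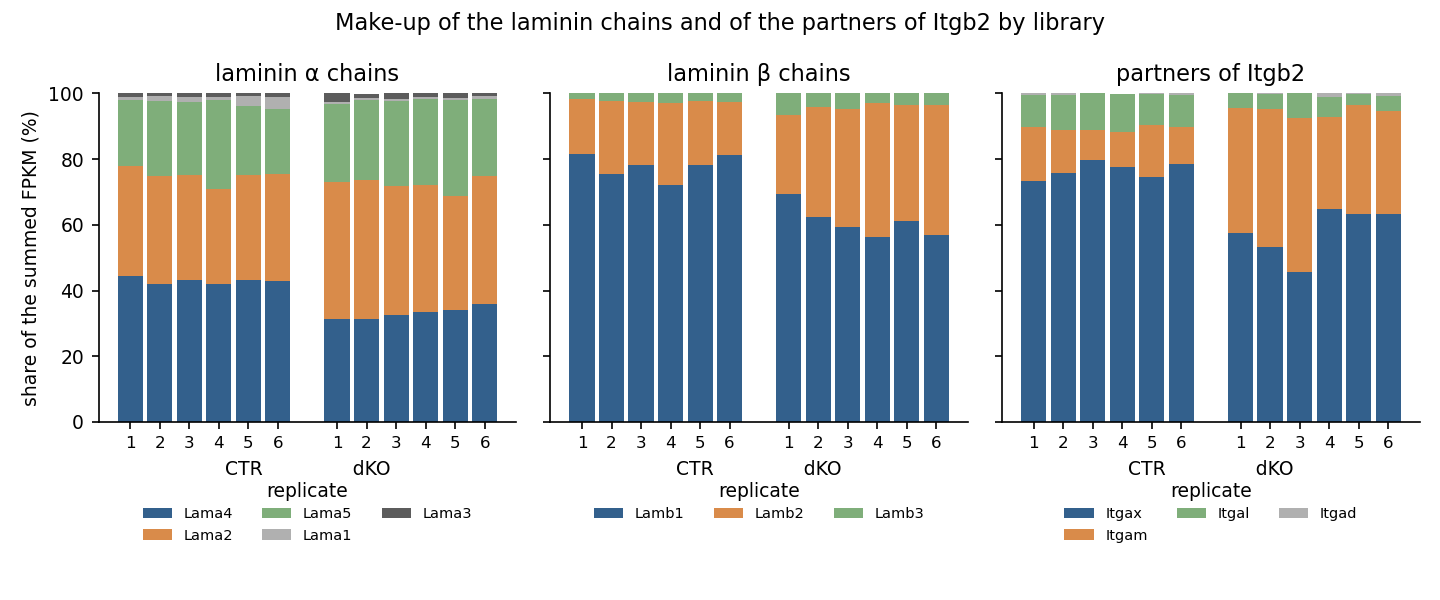
Share of the summed FPKM in percent on the vertical axis that each chain or subunit took within the laminin α and β chains and within the α subunits that pair with Itgb2, 1 stacked bar per library, 6 CTR bars on the left and 6 dKO bars on the right of each panel. Lama4 lies at 41.9 to 44.5% in CTR and 31.3 to 35.8% in dKO, and Itgam at 9.32 to 16.2% and 28.0 to 46.9%.

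Markers of other cells that can make laminins also moved. Of the 6 fibroblast markers tested 3 were lower, namely Col1a1, Col1a2 and Col3a1, 1 was higher, Dcn, and 2 were not called. Of the 7 smooth muscle and pericyte markers tested 1 was lower and 2 were higher, and their summed level was 510 to 1433 in CTR and 460 to 847 in dKO. Of the 6 mesothelial markers tested 5 were higher, and of the 9 lung epithelial markers 2 were higher, Epcam and Krt8. The summed level of the epithelial markers was 123 to 563 in CTR and 224 to 409 in dKO. The part of any of these cells in the changes of the laminin chains or of the laminin receptor subunits Itga3, Itga6 and Itgb4 was not tested. The 10 endothelial markers rose and Lama4, Lamb1 and Lamc1 fell, and the part of endothelial cells in these changes was not tested either.

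The listed partners of laminin in the basement membrane, collagen chains among them, likewise divided, with 4 of 13 tested higher and 3 lower. Among all genes tested, 20.4% were higher and 32.6% lower. Ntn4, a netrin that binds laminin γ chains, rose by 1.07 ± 0.13 (adjusted p = 3.44e-05, limma), Agrn, the proteoglycan agrin, by 0.62 ± 0.11 (adjusted p = 0.000440, limma) and Col4a1, a chain of the collagen network of basement membranes, by 0.53 ± 0.097 (adjusted p = 0.000564, limma). Col15a1 fell by 1.20 ± 0.20 (adjusted p = 0.000366, limma), Fbln1, the matrix glycoprotein fibulin, by 1.05 ± 0.12 (adjusted p = 1.92e-05, limma) and Col18a1, the precursor of endostatin, by 0.85 ± 0.10 (adjusted p = 3.08e-05, limma). The laminin binders Nid1, Nid2 and Hspg2 were not called. The median log2 fold change of this list was 0.042.

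Ligands of integrins other than laminin were higher for 6 and lower for 1 of 15 tested, with a median of 0.41. Shares over all genes tested were 20.4% higher and 32.6% lower. Thbs1, thrombospondin, rose by 1.45 ± 0.30 (adjusted p = 0.00134, limma), Icam2, a ligand of Itgal with Itgb2 and the target of the second beads, by 1.25 ± 0.15 (adjusted p = 2.35e-05, limma) and Jam2, a junction protein that binds the α4 integrin, by 1.18 ± 0.33 (adjusted p = 0.00927, limma). Jam3, a junction protein that binds Itgam with Itgb2, fell by 0.40 ± 0.090 (adjusted p = 0.00272, limma). Fibronectin, Fn1, the ligand of Itga5 and Itgb1, lay at 447 to 940.2 FPKM in CTR and 487 to 822 FPKM in dKO and was not called, as neither receptor gene was.

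The proteins that switch integrins on and link them to actin were higher for 7 and lower for 3 of 24 tested, with a median of 0.12. Over all genes tested, 20.4% were higher and 32.6% lower. Fermt3, the kindlin of blood cells, rose by 1.30 ± 0.15 (adjusted p = 2.45e-05, limma), Parvb, a parvin of the adhesion complex, by 1.05 ± 0.10 (adjusted p = 5.11e-06, limma) and Ptk2b, a kinase related to focal adhesion kinase, by 0.99 ± 0.11 (adjusted p = 1.60e-05, limma). Zyx, zyxin of focal adhesions, fell by 0.86 ± 0.12 (adjusted p = 7.53e-05, limma), Lims1, the adaptor PINCH, by 0.42 ± 0.11 (adjusted p = 0.00765, limma) and Krit1, a regulator of endothelial junctions, by 0.18 ± 0.067 (adjusted p = 0.0396, limma). Fermt2, the kindlin of adherent cells, was at 47.0 to 65.6 FPKM in CTR and 49.95 to 75.2 FPKM in dKO and was not called.

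Of the laminin receptors that are not integrins and the proteins that associate with integrins in the membrane, 7 of 12 tested were higher, with a median of 0.28. By limma 0 were lower, at the adjusted or an unadjusted p under 0.05, and 0 by the exact permutation test and limma-voom. For all genes tested the shares by limma were 20.4% higher and 32.6% lower. The largest rises of this list were those of Cd81, a tetraspanin, by 0.49 ± 0.084 (adjusted p = 0.000351, limma), Cd47, which associates with the αv integrin, by 0.46 ± 0.066 (adjusted p = 0.000105, limma) and Cd63, a tetraspanin of endosomes, by 0.45 ± 0.070 (adjusted p = 0.000166, limma). Dag1 and Bcam, both receptors of laminin α chains, were also called higher, at 0.34 (adjusted p = 0.0296) and 0.29 (adjusted p = 0.0398) by limma.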

How the data were processed

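RNA of MLECs was measured in 6 CTR and 6 dKO libraries, grouped by the sample labels. Per the study's methods, the authors used Trimmomatic for trimming and STAR for alignment to mm39, kept uniquely aligned reads and deposited FPKM per gene. The submitters' processing notes also name Bowtie2 2.2.3, HISAT2 2.1.0, TopHat2 and DESeq2. The counting program, annotation and strand setting are not given in the sources used here. Columns were matched to samples through the labels, and the names of the dKO columns refer to tamoxifen, given to all mice.

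From the deposited FPKM, log2(FPKM + 1) was computed for genes that reached 1 FPKM in 6 or more libraries and fitted with limma 3.58.1 in R 4.3.3 (lmFit, eBayes with a trend, no block), two-sided, with Benjamini-Hochberg adjustment over all genes tested. The steps were tested on simulated data. Whole fragments were recovered for 100% of values above 0 and served for depth and for limma-voom. Intervals from counting were not computed, as the spread between libraries exceeds them. In the 30 pairs of libraries within groups the chi-square per degree of freedom was at least 12.2, above sampling noise in each pair. Whether libraries share a culture or mouse was not tested. Symbols, positions and starts came from the GENCODE annotation of GRCm39, which matched 27706 genes (96.6%). Near-identical copies were sought with BLAST 2.17.0. The remaining steps ran in Python 3.11.15 (pandas 2.3.3, NumPy 2.4.6, numba 0.67.0), and figures were drawn with Matplotlib 3.10.9.

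The genes of the 3 groups are named, except for 1 that enters the counts but is not reported here, and the tested ones are given with the lowest, median and highest FPKM per group, and from each related list up to 3 called genes with the largest rise and up to 3 with the largest fall, beside Sp1 and Sp3. Other genes named belong to those lists or to the marker lists. The genes and lists were chosen with earlier results of these data known. Alternatives were a pseudocount of 0.1, no filter, a filter at 5 FPKM, rescaling to TPM, median-of-ratios scaling, the replicate number as a block, the exact permutation test over 924 groupings per gene (smallest p 0.00216), limma-voom, and leaving out each library.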

Additional observations from a re-analysis of the deposited data

Results flagged for a closer look

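In each of the 56 sets of 6 values (28 genes in CTR and in dKO), the gap between the highest or lowest library and its nearest neighbour was compared with the range of the set. Chance flags about 1 in 20 such sets, 2.8 of 56, and 6 were found in which 1 library stood apart. Itgal was at 2.21 FPKM in dKO replicate 3, where the other dKO libraries lay between 0.661 and 1.18 FPKM. Itgb2 was at 110 FPKM in the same library and between 65.5 and 78.4 FPKM in the others. Itgb3 was at 26.2 FPKM in dKO replicate 5 and between 12.6 and 15.8 FPKM in the others. Itgb4 was at 3.62 FPKM in dKO replicate 5, against 1.92 to 2.54 FPKM. Itgb7 was at 1.94 FPKM in CTR replicate 5, against 0.607 to 1.05 FPKM. Lamb3 was at 5.97 FPKM in dKO replicate 1, against 3.22 to 4.25 FPKM.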

How the results depend on the processing

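Under 20 alternatives, 8 of them in the processing and 12 leaving out a library, 22 of the 28 genes kept their call wherever they were tested, among them 15 of the 19 called. The exceptions were Itga1, Itga2, Lamb2 and Lamb3, which lost their call in some, and Itgb3 and Itgb5, which gained one in some. No called gene changed sign. Of 100 recomputed counts of called genes 99 stayed within 1.5 times the reported count. The other was the number of genes past both thresholds of the study, 2 with limma-voom, where Itgb4 joined Itgam on a scale without the pseudocount of 1. The higher laminin chains numbered 3 in the reported fit, 1 in 9 alternatives (without CTR replicate 1, 3 or 5, without dKO replicate 2, 3 or 5, with no filter, rescaled to TPM and with limma-voom), 2 in another 9 and 3 in 2. The lower ones numbered 3 or 4 throughout. Leaving out a library gave 16 to 19 called genes in all, 8 to 10 among the other integrins and 4 to 6 among the laminins.

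Signs changed only for values near 0. The median log2 fold change of the laminins was -0.037 without a filter, where the 3 chains of low level enter, -0.037 with the filter at 5 FPKM, -0.045 rescaled to TPM and -0.035 with limma-voom, and ran from -0.070 to 0.068 when a library was left out. Lama2 was at -0.004 and Itgb1 at -0.028 when rescaled to TPM, and Lama5 at 0.048 and Itga5 at 0.083 with median-of-ratios scaling. When a library was left out, Lama2 ran from -0.015 to 0.093, Lama5 from -0.140 to 0.048, Itga5 from -0.171 to 0.119, Itgb1 from -0.084 to 0.111 and Itgal from -0.024 to 0.166. The cause was not tested.

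The labels do not say that a replicate number marks a shared litter, batch or day. The correlation of deviations from the group means between libraries of the same number ran from -0.108 to 0.565 and was over 0.1 for 3 of the 6 numbers, and 2 of the 6 CTR libraries correlated best with the dKO library of their own number. The fit with the replicate block called 19 genes, 16 higher and 3 lower, with 4 leukocyte integrins, 10 other integrins and 5 laminins. It added Itgb3 and lost Lamb3, while the adjusted p of Lamb2 was 0.00351. Depth limits what can be said of the 9 genes not tested, of which 6 were under 1 FPKM in all libraries.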
